A study of Mus musculus with 56 samples.

Results

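Clonal lines of granulocyte-monocyte progenitors (GMP) were compared by how open the Sox4 locus was before Tet2 was lost. The 24 clones maintained in SCF were ranked by the accessibility of Sox4 in their control line and divided at the median into 12 upper and 12 lower Sox4 clones. The change from control to Tet2 KO line was then measured in each group. The members were therefore chosen by Sox4 counts of the control lines. Sox4 and the peaks around it on chromosome 13 were left out of the tests of loci, single peaks, the size of the change and motifs. Sox4 in the KO lines was compared separately, and promoter shares kept these peaks. These clones are 24 of the 28 clone pairs of the series, or 48 of 56 libraries, and the 4 pairs grown with GM-CSF were not used. Each clone grew from a single mouse bone marrow GMP that a retroviral estrogen receptor fusion of Hoxb8 keeps self-renewing in 0.5 µM estradiol, here with SCF at 100 ng/ml. Cells carried floxed Tet2 alleles (Tet2 fl/fl), and each clone was divided between an integrase-defective lentivirus with GFP (Control) and one with Cre at an MOI of 200 (Tet2 KO). ATAC-seq was made once per line from 1000 cells, so clones, not repeat libraries, are the replicates, and they all come from the marrow of a Tet2 fl/fl mouse, so that the spread between them holds none between animals. The immortalized state, the absence of GM-CSF and the single library per line limit what these lines can stand for.

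Sox4 is an HMG box transcription factor of lymphoid and early progenitor cells that binds DNA through a short site rich in adenine and thymine. Tet2 is a dioxygenase that oxidizes 5-methylcytosine and so helps to keep enhancers and promoters free of DNA methylation; its loss in blood stem cells is a common start of clonal hematopoiesis. The comparison asks whether the same mutation changes chromatin more, or at other genes, in clones that begin with an open Sox4 locus.

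The promoter sequence of 3 genes is shown because the results turn on them: the one whose peak supplied the largest share of the counts that chose the clones, the largest of the rises called in both groups of clones by its change in upper clones, and the locus with the largest rise called in the upper Sox4 clones. They come from RefSeq promoters of GRCm38.p6, end at the base before the most upstream annotated start site, and are read on the minus strand as chr13:28953714-28953949, chr3:142882005-142882254 and chr4:135272815-135273010. Capitals mark the NFY letters CCAATC and the KLF and SP letters GGGCGG on either strand, which may overlap each other.
Sox4: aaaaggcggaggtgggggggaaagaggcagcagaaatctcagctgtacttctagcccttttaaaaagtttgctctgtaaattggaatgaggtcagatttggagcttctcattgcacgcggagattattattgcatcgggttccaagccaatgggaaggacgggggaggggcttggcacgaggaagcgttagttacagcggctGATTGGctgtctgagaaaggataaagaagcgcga
Pkn2: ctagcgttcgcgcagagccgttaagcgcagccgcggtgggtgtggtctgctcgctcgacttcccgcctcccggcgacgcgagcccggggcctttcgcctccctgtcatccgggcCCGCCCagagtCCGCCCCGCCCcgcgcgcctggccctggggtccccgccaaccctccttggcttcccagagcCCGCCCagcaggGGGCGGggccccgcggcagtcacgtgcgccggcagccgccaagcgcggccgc
Clic4: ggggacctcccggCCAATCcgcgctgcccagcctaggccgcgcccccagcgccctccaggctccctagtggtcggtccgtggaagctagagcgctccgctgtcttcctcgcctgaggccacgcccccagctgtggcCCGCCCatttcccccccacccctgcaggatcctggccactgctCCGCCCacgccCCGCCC
The Sox4 stretch held 1 NFY match and no KLF and SP match, and 50.0% of its bases were G or C. The Pkn2 stretch (77.6% G or C) held 5 KLF and SP matches and no NFY match, and the Clic4 stretch (74.5%) held 3 and 1. Of all RefSeq promoter windows of 250 bases, 32.7% held a KLF and SP match and 14.6% an NFY match. The SOX letters ACAAAG occurred in none of the 3 stretches, and neither did CCGGAAG of ETS factors, GCATGCG of NRF1 or GATGGCG of YY1, each searched on both strands. The absence says only that these letters are not in these windows.

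Sox4 accessibility was the sum of 10 peaks with centres up to 10 kb from its transcription start site (TSS) on chromosome 13 (mm10), scaled to the library's counts in all peaks (CPM). In control lines of the upper Sox4 clones it ran from 106 to 166 CPM with a median of 126, and in those of the lower Sox4 clones from 69.5 to 101 CPM with a median of 90.6. The step at the divide was small: the last clones inside the lower group, 9 and 16, both held 101 CPM, and the first in the upper group, clones 15 and 28, held 106 and 112 CPM. The values rest on 8 to 156 counts per control line. In 20 of the 24 clones the 95% Poisson interval of the control value, which covers counting error only, included the median of 104 CPM. The 4 exceptions, clones 26, 8, 18 and 12, were all in the upper group, so no lower Sox4 clone was separated from the median by its counts.

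The peak over the Sox4 start site (chr13:28953608-28953908) supplied 46.9% of the counts in the window, and a pair of peaks 4260 and 5988 bp upstream supplied 13.2% and 12.3%. In control lines the start site peak averaged 58.7 CPM in the upper and 38.3 CPM in the lower Sox4 clones. KO lines played no part in the choice of clones, and there Sox4 could be tested. KO lines of the upper Sox4 clones held 128 ± 18.6 CPM (SD, n = 12) and those of the lower Sox4 clones 105 ± 26.8 CPM (n = 12), a difference of 22.2 CPM (two-sided permutation test, p = 0.029). The KO values overlapped widely, from 91.9 to 157 against 70.4 to 141 CPM. Without the 4 clones that have a library of low depth the difference was 18.1 CPM (exact permutation p = 0.11), and with the clones divided on peaks within 1 kb it was 10.9 CPM (permutation p = 0.30, n = 12 in each group). From control to KO, Sox4 changed by -1.46 ± 30.1 CPM in the upper and by 15.4 ± 26.2 CPM in the lower Sox4 clones; it was higher in the KO line of 5 of 12 and of 9 of 12. These changes contain the control values that chose the clones and are given without a test. Had the KO line been used instead, 16 of the 24 clones would have stayed in their group.

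**Figure D1:**
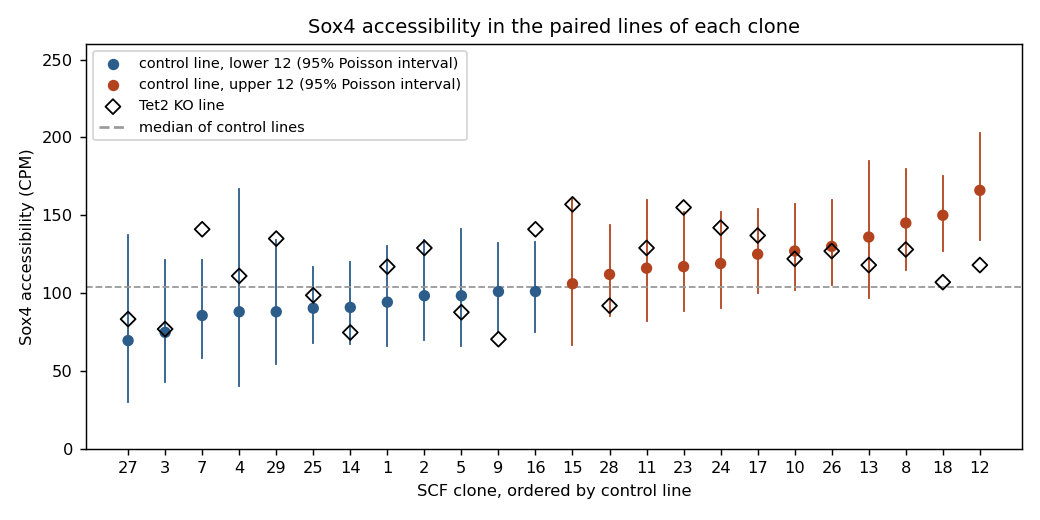
Sox4 accessibility in CPM (vertical axis) for the 24 SCF clones ordered by their control line (horizontal axis); filled points are control lines with 95% Poisson intervals, diamonds are Tet2 KO lines, and the dashed line is the control median of 104 CPM. Diamonds of lower Sox4 clones lie both above and below the dashed line, and those of clones 18 and 12, the highest controls, held 107 and 118 CPM in the KO line.

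The groups differed in more than Sox4. Control libraries of the upper Sox4 clones held a median of 550451 counts (207267 to 1042973) and those of the lower Sox4 clones 377856 (102302 to 619952). Control Sox4 and control total had a rank correlation of 0.63 over the 24 clones. Both are given as a description, since the total is also the divisor of the CPM that chose the clones. The share of counts in peaks within 1 kb of a TSS, which reflects library quality as well as cell state, averaged 48.3 ± 2.93% in upper and 44.5 ± 4.35% in lower control lines (SD, n = 12 each); it has no test either, since the Sox4 start site peak is part of both measures. In KO lines this promoter share averaged 50.1 ± 2.28% in upper and 46.1 ± 6.65% in lower Sox4 clones (SD, n = 12 each). Its part in the difference of KO line Sox4 given above was not tested. Of clones 23 to 29, the later numbered set, 4 were in the upper and 3 in the lower group. The part of depth and promoter share in the results below was not tested apart from the alternatives given beside them. The GMP markers Kit (a control median of 71.6 CPM in upper and 60.1 in lower clones), Mpo (72.5 and 74.0), Elane, Ctsg and Cebpa had counts in both groups. Of the lists for neutrophil, monocyte, basophil and mast cell, erythroid, dendritic and lymphoid genes, no member with a peak was at 0 in all 48 libraries. Single members differed widely in level. Control medians in upper and lower clones were 4.00 and 4.11 CPM at Gata1, the erythroid master regulator, but 150 and 143 CPM at erythroid Klf1. Among lymphoid genes they were 6.92 and 8.71 CPM at Cd3e and 123 and 117 CPM at Cd79a. Klf1 and Cd79a thus lay above Kit as window sums. Each of these levels is the sum of all peaks within 10 kb of the gene's TSS, which can include peaks of neighbouring genes. The summed levels of all 6 lists overlapped between control and KO lines in both groups of clones.

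More loci passed the test for Tet2 loss in the upper than in the lower Sox4 clones. A locus is the sum of a protein-coding gene's peaks within 10 kb of its TSS, and 11152 loci had counts enough to be tested. In the upper Sox4 clones 241 loci rose and 32 fell in KO lines, which is 2.45% of those tested (edgeR quasi-likelihood test with clone as a block, adjusted p under 0.05). In the lower Sox4 clones 33 rose and 8 fell, or 0.368%. With upper-quartile scaling the calls were 140 higher and 63 lower in upper and 11 and 6 in lower clones. The difference itself was tested at every locus, and 0 of 11152 passed (0%), with 476 at an unadjusted p under 0.05, or 4.27%, in edgeR and 0 passing in DESeq2 as well. So no locus had a change that was shown to differ between the groups, although the numbers of calls were unequal. The median standard error of a locus was 0.120 (log2) in the upper and 0.149 in the lower Sox4 clones.

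Most loci called as rises in one group also had a positive change in the other. Of the 241 loci that rose in the upper Sox4 clones, 229 had a positive change in the lower Sox4 clones, 126 of them at an unadjusted p under 0.05, and 16 were called there. Over all tested loci the changes had the same sign in 62.4%. The 241 had a median log2 change of 0.33 in the upper clones, from which they were chosen, and of 0.22 in the lower clones. All 33 loci that rose in the lower Sox4 clones had a positive change in the upper clones, with medians of 0.43 and 0.30. For falls, the 32 in upper clones had a median of -0.48 there and -0.13 in lower clones, with 28 of 32 in the same direction, and the 8 in lower clones had -0.56 there and -0.09 in upper clones, with 5 of 8, or 62.5%, close to the share over all loci. Called falls were less accessible than called rises in the upper clones (median log2 CPM 5.74 and 7.12) and had larger standard errors there (0.13 and 0.09), and the part of this in their medians was not tested. No fall was called in both groups.

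**Figure D2:**
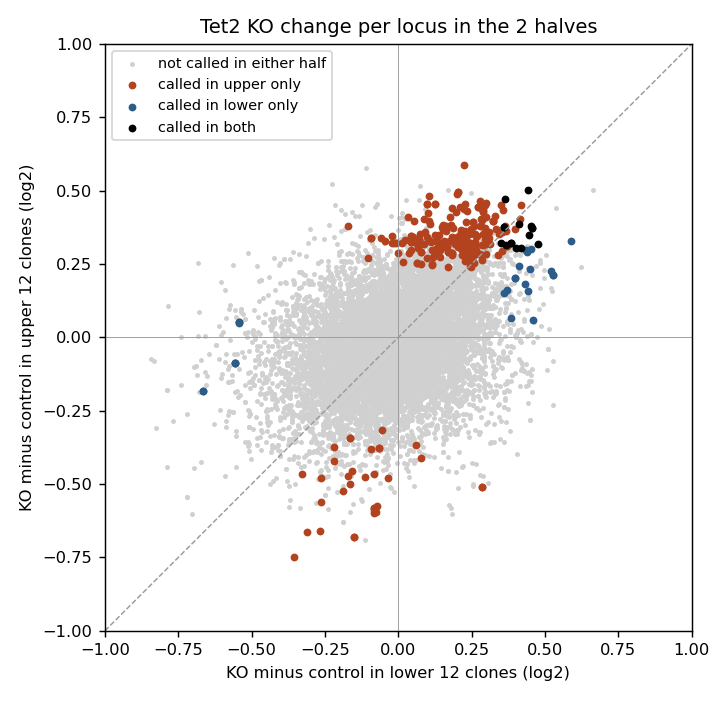
Each point is 1 of 11152 loci, with its KO minus control change (log2) in the 12 lower Sox4 clones on the horizontal and in the 12 upper Sox4 clones on the vertical axis; colours mark loci called at an adjusted p under 0.05. Rises called in either group lie in the upper right quadrant with few exceptions, and the 16 loci called in both (black) lie near the diagonal.

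Clic4 (ENSMUSG00000037242.8, chromosome 4, TSS 135272814), an intracellular chloride channel protein, opened most in the upper Sox4 clones. Its control lines there held 71.0 to 148 CPM with a median of 101, and its KO lines 108 to 201 with a median of 170. KO was higher in 12 of 12 clones (log2 0.59 ± 0.09 SE, edgeR adjusted p = 1.56e-06). In the lower Sox4 clones control lines held 98.4 to 186 CPM with a median of 116 and KO lines 92.3 to 200 with a median of 144, higher in 9 of 12 (0.22 ± 0.10, adjusted p = 0.41). The levels of control and KO lines overlapped in both groups, and the change differed by 0.36 ± 0.13 between them, which did not pass (unadjusted p = 0.0074, adjusted p = 1.00).

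Pkn2 (chromosome 3, TSS 142882004), a serine and threonine protein kinase, opened by nearly the same amount in both groups. Its medians went from 140 to 200 CPM in upper and from 123 to 173 CPM in lower Sox4 clones. The KO line was higher in 12 of 12 and in 11 of 12 clones (log2 0.50 ± 0.08, edgeR adjusted p = 4.99e-06, and 0.44 ± 0.10, adjusted p = 0.011). The difference was 0.06 ± 0.13. The autophagy gene Wipi1 rose in both groups as well (0.47 and 0.36, edgeR adjusted p = 1.90e-05 and 0.041), as did Trib2, a pseudokinase that promotes C/EBPα breakdown (0.32 and 0.48). The other loci called in both were Ano10, BC005624 and its neighbour Usp20, Chml, Opn3 and Wdr64, which lie together on chromosome 1, Dcaf6 and Mpc2, also neighbours, Khsrp, Nmt2, Sap130, the chromatin protein Setd5, and Tmem123. Neighbouring loci share peaks and are not separate observations.

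Other large rises in the upper Sox4 clones were at Relb, the partner of p52 in the alternative NF-kB pathway (0.48), Kdm1b, an H3K4 demethylase, with Tpmt (0.46), Zfp78 (0.46), Limk1, a kinase that inactivates cofilin (0.45), Malt1, a paracaspase of NF-kB signalling (0.45), and Smchd1, a silencer of the inactive X (0.45). Their changes in the lower Sox4 clones were all positive, from 0.10 at Relb to 0.42 at Smchd1, and none of those 6 passed there. The largest falls in the upper clones among the well-covered loci were Galk1, galactokinase (-0.45), the transcription elongation kinase Cdk12 (-0.42), Akt1 (-0.38), Zfp207 with 5730455P16Rik (-0.38) and the Mediator subunit Med1 (-0.37). In the lower clones those 5 ranged from -0.22 to -0.07 and did not pass. Cdk12 and Med1 are neighbours with overlapping windows, so their falls are not separate observations.

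In the lower Sox4 clones the largest rise among called loci of at least median accessibility was at Gk, glycerol kinase on the X chromosome (0.59 ± 0.13, edgeR adjusted p = 0.011). Its medians went from 59.9 to 85.2 CPM, with KO higher in 11 of 12 clones, while in the upper Sox4 clones they went from 63.1 to 81.5 CPM, with KO higher in 10 of 12 (0.33, adjusted p = 0.081). Next were Idh3g with Ssr4 (0.53 in lower against 0.21 in upper clones), Pdp1, which activates pyruvate dehydrogenase (0.52 and 0.23), Trib2, Cacybp (0.46 and 0.06), Carm1, an arginine methyltransferase (0.45 and 0.30), Esyt2 (0.45 and 0.23), Ano10, Opn3 and Wdr64. Falls in lower clones were at Parn with Bfar (-0.56 against -0.09), Prpf6 with Zfp512b (-0.54 against 0.05) and Spc24, of the kinetochore (-0.54 against 0.05). Each of these 3 was lower in the KO line of 11 of 12 lower Sox4 clones and of 7 of 12 upper Sox4 clones.

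The loci nearest to a difference between the groups are given with the reminder that none passed. The smallest p belonged to Syngr2, a synaptogyrin gene that shares its peaks with Gm20708. It lies just under the median accessibility asked of named loci and is named here after its value was seen. In the upper Sox4 clones Syngr2 went from a median of 59.5 CPM (44.1 to 72.4) to 45.2 (15.6 to 51.4), lower in 11 of 12 KO lines (-0.51 ± 0.13, edgeR adjusted p = 0.010). In the lower Sox4 clones it went from 51.4 CPM (26.1 to 69.6) to 58.4 (15.4 to 110), higher in 10 of 12 (0.28 ± 0.14). The difference was -0.79 ± 0.19 (edgeR p = 5.07e-05, adjusted p = 0.28).

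Among well-covered loci, the 10 of smallest p with a more positive change in the upper Sox4 clones were Prpf6 with Zfp512b, Spc24, Mon1b, Ankrd52, BC028528, Birc5, Rhoa with Tcta, Coq10a, Samd10 and Relb. Prpf6 and Samd10 are neighbours with overlapping windows, as are Ankrd52 and Coq10a, so neither pair gives separate observations. Prpf6, a spliceosome protein, was at 0.05 in upper and -0.54 in lower clones, a difference of 0.60 ± 0.17 (unadjusted p = 4.10e-04). Birc5 (survivin, of the chromosomal passenger complex) was at 0.30 and -0.19, and the GTPase Rhoa at 0.34 and -0.09. Relb was the only one of the 10 with a positive change in both groups. Its medians went from 126 to 181 CPM in upper clones, with KO higher in 12 of 12, and from 139 to 164 CPM in lower clones, with KO higher in 7 of 12. Its difference was 0.38 ± 0.12 (edgeR unadjusted p = 0.0025, adjusted p = 1.00).

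The 10 with a more negative change in the upper Sox4 clones were Ankrd28, Ywhab, Ranbp2, Armc7, Gm10392, Esco1, Cep83, Cd34, Snrpd1 and Zfp692. Ankrd28 was at -0.18 in upper and 0.38 in lower clones (difference -0.56 ± 0.16, edgeR unadjusted p = 7.03e-04), Ywhab, a 14-3-3 protein, at -0.13 and 0.45, and Ranbp2, a nucleoporin, at -0.15 and 0.37. Esco1 and Snrpd1, which lie side by side with overlapping windows, were at -0.35 and 0.16 and at -0.34 and 0.15. Cd34, the progenitor surface marker, was the one gene of the fixed progenitor and lineage lists among the 20: its control lines held a median of 78.7 CPM in upper and 58.8 CPM in lower Sox4 clones, and its KO lines 67.0 and 63.8 CPM. KO was lower in 8 of 12 upper and higher in 10 of 12 lower Sox4 clones (difference -0.51 ± 0.18, edgeR unadjusted p = 0.0039, adjusted p = 1.00).

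**Figure D3:**
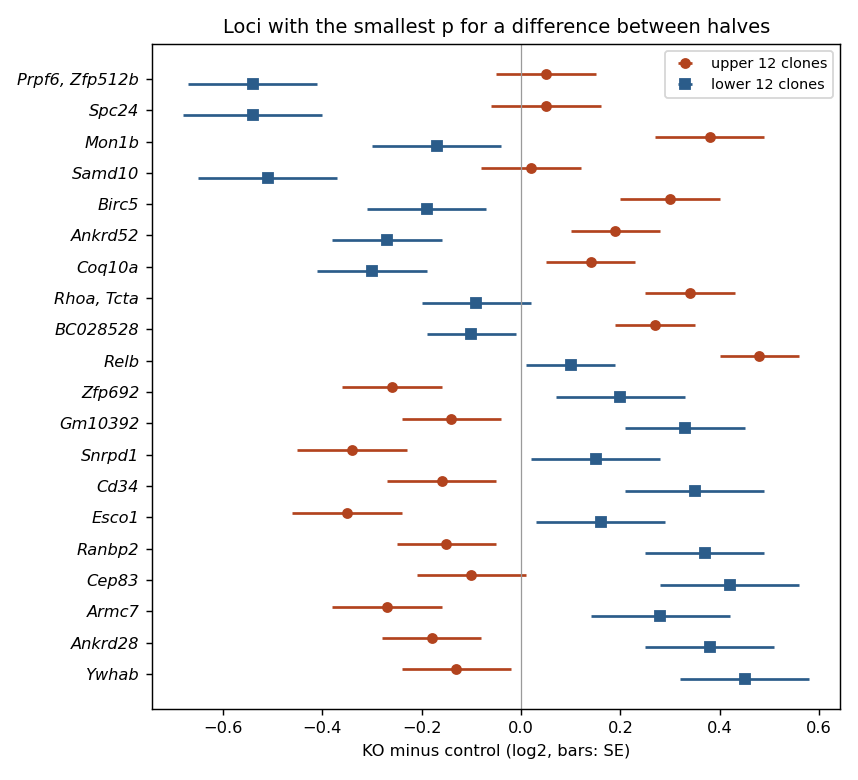
KO minus control change (log2, horizontal axis, bars are SE) at the 20 well-covered loci of smallest p for a difference, in the 12 upper (circles) and 12 lower (squares) Sox4 clones. The bars of each pair do not touch, as the choice of loci requires, and none of the 20 differences passed the adjusted threshold. Some of the 20 loci are neighbours with overlapping windows and are not separate observations.

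The 20 gene lists were read against the background of 2.45% of loci called in the upper and 0.368% in the lower Sox4 clones, and of median changes over all tested loci of -0.01 and -0.00. In glycolysis and hypoxia 3 of 26 tested loci rose in the upper Sox4 clones and 0 passed in the lower, with medians of 0.07 and 0.12. They were Bnip3, a mitophagy receptor (0.45 in upper, 0.35 in lower clones), Hif1a, the oxygen-sensitive transcription factor (0.35 and 0.22), and Pdk1, which restrains pyruvate entry into the citrate cycle (0.33 and -0.05). Aldoa (0.24 and 0.23), Pkm (0.23 and 0.13), Slc2a1, the glucose transporter (0.16 and 0.38), and Pgk1 (0.29 and 0.19) did not pass in either. In the NF-kB list 1 of 18, Relb, rose in upper clones, and Ticam1 (0.19 and 0.27), Tnfaip3 (0.14 and -0.13), Myd88 and Ccl3 did not pass; the medians were 0.09 and 0.02. In cytokine receptor and STAT signalling 1 of 21 rose, Stat3 (0.38 in upper, 0.17 in lower clones), and Csf2ra, Pim1, Il3ra and Jak1 did not pass (medians 0.01 and 0.04).

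In the remaining lists at most 1 member passed. Single members rose in the upper Sox4 clones among immediate early genes (Dusp2, 0.28, of 23), Wnt and Notch genes (Axin1, the scaffold of the β-catenin destruction complex, 0.32 in upper and 0.31 in lower clones, of 17), cell cycle genes (Pcna, 0.26 and 0.02, of 25) and housekeeping genes (Ywhaz, 0.29, of 16). The medians of these 4 lists lay between -0.03 and 0.06 in both groups. No member of any list passed in the lower Sox4 clones. The 25 stem and early progenitor regulators tested had medians of 0.02 in both groups and 0 calls. In upper and lower clones, the 17 neutrophil genes had medians of -0.03 and -0.07, the 15 monocyte and macrophage genes -0.10 and -0.07, the 7 basophil, eosinophil and mast cell genes -0.19 and 0.01, the 15 Hox cluster and cofactor genes -0.15 and -0.03, the 14 Tet, Dnmt and methylation genes -0.01 and 0.10, the 11 interferon genes -0.06 and -0.05, and the 12 phagocyte effector genes -0.09 and -0.04, each with 0 calls. The erythroid (7), dendritic (8) and lymphoid (7) lists also had 0 calls, with medians between -0.12 and 0.03. The study tied loci to a strong or a weak functional response by their accessibility in WT clones, GM-CSF clones included, not by a change with Tet2 loss. Of these loci, 4 and 2 were tested here for that change, which is another question. They had 0 calls and medians of -0.01 and -0.18 in upper and -0.03 and -0.18 in lower Sox4 clones.

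Loci fixed for being named whatever their p showed no change that passed. The Tet2 locus itself, whose peaks lie at the promoter and do not test the deletion, was at -0.03 ± 0.17 in upper and 0.12 ± 0.19 in lower Sox4 clones. Gata2, a stem and progenitor factor, was at -0.14 and -0.08, Meis1, a HOX partner, at -0.13 and 0.02, the repressor Gfi1b at 0.11 and -0.34, and Runx3 at 0.10 and 0.20. Coagulation factor F10 was at -0.39 and -0.30, Timp2 at 0.03 and -0.05, Kit at -0.02 and 0.13, and the granule enzyme Mpo at -0.17 and -0.07. The alarmin S100a8 had too few counts to be tested. Its control median was 15.3 CPM in upper clones, and the KO line was higher in 1 of 12 upper and 3 of 12 lower Sox4 clones. The Gfi1b difference of 0.44 ± 0.20 (edgeR unadjusted p = 0.028, adjusted p = 1.00) was the largest of these in size after Cd34.

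Single peaks gave the same picture as loci. Of 9228 peaks with counts enough, 47 rose and 3 fell in the upper Sox4 clones, or 0.542% (edgeR adjusted p at or under 0.01), 1 rose and 1 fell in the lower Sox4 clones, or 0.0217%, and 0 differed between the groups (0%), with 394 at an unadjusted p under 0.05 and 0 passing in DESeq2. The 3 falls in upper clones were nearest to Ndufa8, Asl and Kansl1 and the fall in lower clones to Bfar (-0.94 against -0.21); they are less accessible than the named peaks and were named after their values were seen. A TSS was within 1 kb of 46 of the 47 rises in upper clones (97.9%) and of 79.8% of all tested peaks. Those 47 were also more accessible, with a median log2 CPM of 7.04 against 5.44 over all tested peaks. The part of accessibility in the promoter share was not tested. The peaks of smallest p that rose in upper clones lay at Clic4 (chr4:135272826-135273126, 0.61 ± 0.09), Wipi1, Pkn2, G3bp1, a stress granule protein, and Dazap2. The Pkn2 peak (chr3:142882017-142882317) had medians of 122 and 177 CPM in upper and of 114 and 159 CPM in lower control and KO lines (0.49 and 0.45, edgeR adjusted p = 6.11e-05 and 0.035). The Dazap2 peak (chr15:100615134-100615434) rose by 0.46 in upper clones, in 12 of 12, and was at 0.05 in lower clones, higher in 6 of 12 (difference 0.42 ± 0.13, unadjusted p = 0.0017, adjusted p = 1.00).

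In the lower Sox4 clones the rise that passed was 926 bp from the TSS of Ppp2r3d (0.53 ± 0.11, edgeR adjusted p = 0.0077, against 0.18 in upper clones), followed by peaks at Trib2, Pdp1, Pkn2 and Nr2c2 that did not. The Trib2 promoter peak was higher in the KO line of 12 of 12 lower and 11 of 12 upper Sox4 clones (0.63 and 0.37). The peaks nearest to a fall in lower clones with high coverage were at Lias, which makes lipoic acid (-0.77 against -0.14), Cnnm4, B2m, of MHC class I (-0.66 against -0.19), and Spc24. For the difference, a peak at Fut7 had the smallest p among well-covered peaks (-0.38 in upper, 0.43 in lower clones, unadjusted p = 4.26e-04, adjusted p = 1.00), and one at Xbp1, a factor of the unfolded protein response, was higher in KO in 10 of 12 upper and 1 of 12 lower Sox4 clones (0.24 and -0.39).

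The size of the change per clone was also compared. A perturbation score was computed as the mean over tested loci of the product of KO minus control log2 CPM from random, equal divisions of a clone's counts, so that noise independent between divisions averages out and a clone whose loci moved in any direction scores high. The divisions come from the same libraries, so only counting noise averages out. Any other difference between the single control and the single KO library stays in the score, and its part was not tested. It was 0.0213 ± 0.0122 (SD, n = 12) in the upper and 0.0337 ± 0.0217 (n = 12) in the lower Sox4 clones, a difference (upper minus lower) of -0.0123 (two-sided permutation p = 0.10). The call depends on the choices made: the difference was -0.0156 with the clones divided by KO line Sox4 (permutation p = 0.034), -0.0151 by the 1 kb window (0.040), -0.0198 over all loci with a peak (0.031), -0.0201 for the upper 8 against the lower 8 clones (exact permutation p = 0.048) and -0.0148 without clone 2 (permutation p = 0.048), and it turned to 0.00993 with the clones divided by control total (permutation p = 0.19). With every library thinned to the smallest total, 102302 counts, the scores were 0.0111 ± 0.00826 and 0.0175 ± 0.0120 (permutation p = 0.14, n = 12 each). Thinned scores of clones divided by KO line Sox4 differed by -0.00657 (permutation p = 0.13). Without the 4 clones that have a library of low depth, the difference from all counts was -0.00750 (exact permutation p = 0.37). From all counts, upper Sox4 clones ran from 0.00533 (clone 11) to 0.0426 (clone 28) and lower Sox4 clones from 0.00625 (clone 2) to 0.0750 (clone 14). The 4 highest of these scores were all in lower Sox4 clones: 14 (0.0750), 27 (0.0603), 25 (0.0599) and 3 (0.0442). Clones 27 and 3 have a library of low depth. With thinned libraries clone 14 scored 0.0383, 25 0.0361, 27 0.0265 and 3 0.0174, the last under upper clone 28 at 0.0229.

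Those 4 clones also had the largest changes in promoter share. The KO line of clones 14, 25 and 27 had 12.4, 11.8 and 11.1 percentage points more of its counts at promoters than the control line, and that of clone 3 had 10.4 points fewer (-10.4). On average the promoter share changed by 1.75 ± 2.67 points in upper and 1.63 ± 8.16 points in lower Sox4 clones (SD, n = 12 each). The means were close and the spread was wider in the lower group, at -10.4 to 12.4 against -2.43 to 7.38 points. This change contains the control share, which holds the Sox4 start site peak, so it is given without a test. With promoter share as a covariate, 171 loci rose and 32 fell in the upper and 3 rose and 3 fell in the lower Sox4 clones, and 0 differed.

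**Figure D4:**
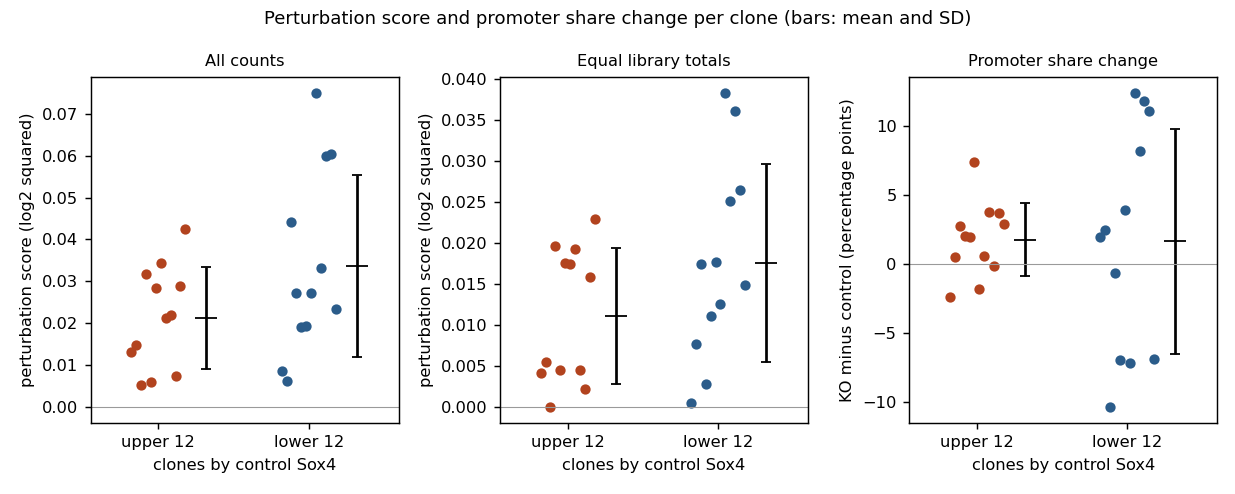
Perturbation score per clone from all counts (left) and with every library thinned to 102302 counts (middle), and KO minus control change in promoter share in percentage points (right), for the 12 upper and 12 lower Sox4 clones; black bars are mean and SD. The SD of the lower Sox4 clones is the larger one in all 3 panels, and the points of the groups overlap in each.

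No difference between the groups was detected in peaks that share a motif. The counts in peaks holding each of 24 sets of motif letters were compared with those expected from peaks of the same GC content and mean accessibility, and 0 of 24 changes differed between the groups (permutation test, smallest adjusted p = 0.68, smallest unadjusted p = 0.082 at the MYC E-box CACGTG). Relative to such matched peaks, those with the ETS letters were lower in the KO line of 12 of 12 upper and 12 of 12 lower Sox4 clones, by -1.90 ± 0.875% and -2.23 ± 1.16% (SD, n = 12 each). Those with YY1 letters were lower in 11 of 12 clones of each group (-2.88 and -2.14%), and those with NRF1 letters in 11 and 10 of 12 (-2.45 and -3.23%). Peaks with the KLF letters CCACACC were higher in 12 of 12 upper and 10 of 12 lower Sox4 clones (1.79 and 1.22%, and 1.53 and 1.06% without matching), and those with RUNX letters in 11 and 10 of 12 (0.666 and 0.773%). The directions of ETS, YY1, NRF1 and RUNX depend on the matching: without it the mean changes in upper and lower Sox4 clones were 1.80 and 1.46% for ETS, 0.0665 and 0.851% for YY1, 0.991 and 0.116% for NRF1, and -1.84 and -1.06% for RUNX. In peaks farther than 1 kb from a TSS, matched, ETS was at -0.285 ± 1.49% in upper and -1.18 ± 1.66% in lower Sox4 clones (SD, n = 12 each). The SOX letters, found in 22.1% of peaks, were at 0.160 ± 0.719% in upper and 0.237 ± 0.836% in lower Sox4 clones with matching, and at -1.68 and -1.53% without. C/EBP letters were at -0.402 and -1.32% (difference 0.918, unadjusted p = 0.10 by permutation).

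Which group had more calls depended on what divided the clones. With library totals matched between the groups by thinning the deeper libraries, 121 loci rose and 16 fell in the upper and 41 rose and 8 fell in the lower Sox4 clones, at median standard errors of 0.143 and 0.147. This thinning, like that of the scores, was a single random draw, and 10780 loci were tested after it. The spread of these counts between draws was not measured. Divided by Sox4 in the KO line instead, 66 rose and 9 fell in the upper and 209 rose and 22 fell in the lower group; the median totals of those groups were 457614 and 351521 counts over 24 libraries each. Divided on control peaks within 1 kb of the Sox4 TSS, 115 rose and 11 fell against 153 and 37. Divided by the control line's total count, with no use of Sox4, 481 rose and 114 fell in the deeper and 3 rose and 0 fell in the shallower 12 clones, and 2 loci differed, Osgep and Apex1, which share their peaks (0.24 against -0.34). The 3 loci that rose in the shallower clones were Pkn2 (0.48), Gk (0.65) and Slc2a1 (0.54).

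Single clones also moved the counts. Leaving out 1 clone at a time gave between 148 (without clone 12) and 432 (without clone 24) calls in the upper Sox4 clones, and between 1 (without clone 25) and 88 (without clone 3) in the lower. The count of loci that differed stayed at 0 in all 24 of these fits.

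**Figure D5:**
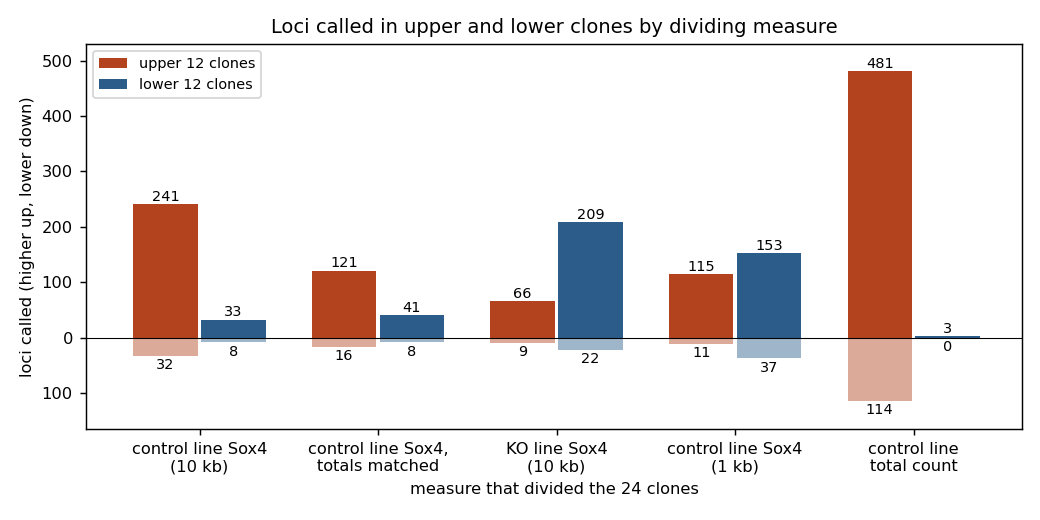
Loci called for a Tet2 KO change (vertical axis, higher above and lower below the line, numbers printed on the bars) in the upper and lower 12 clones when the 24 clones were divided by different measures (horizontal axis). The upper group had more calls when control Sox4 within 10 kb, with or without matched totals, or control total divided the clones, and fewer when KO line Sox4 or the 1 kb window did.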

How the data were processed

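Bulk ATAC-seq of 56 libraries was deposited as raw counts over 297361 peaks of 301 bp. The authors aligned reads to mm10; Bowtie2, SAMtools and Picard are named in the submitters' processing notes without versions, and the peak set was made from single-cell ATAC-seq summits and ImmGen peaks. What was counted per peak, fragments or Tn5 insertions, is not stated in those notes. The 48 SCF libraries held 102302 to 1079233 counts. All library columns had a label, and those of the 4 GM-CSF pairs were not used in the tests. Some GM-CSF pairs have sample titles that say SCF, while their treatment field and library name say GM-CSF, which was followed.

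Counts were summed per protein-coding locus (peaks centred within 10 kb of a TSS, GENCODE vM21 basic annotation) and tested with edgeR 4.0.16 in R 4.3.3: filterByExpr with a minimum count of 10, TMM scaling, quasi-likelihood test with clone as a block, separate KO terms for upper and lower Sox4 clones and their difference, Benjamini-Hochberg adjusted p under 0.05 (peaks, at or under 0.01). The block pairs lines of the same clone, as the labels give it. With 1 library per line, clones are the replicates. DESeq2 1.42.0 was an alternative. Log2 changes are given ± SE. Values per clone were compared by a two-sided permutation test of 100000 resamples, exact where a group had fewer than 10 clones. The perturbation score used 10 random divisions, a prior count of 2 and each clone's change centred on its mean. Scripts were tested on simulated data.

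The members, gene lists and tests were chosen with earlier results of these data known. Named loci were at or above the median accessibility: the 10 smallest p per direction for the difference, the 10 largest rises and 5 largest falls called in each group, list members that passed with up to 4 examples that did not, and 12 genes whatever their p. One of the named rises is not reported here. For peaks, the 5 smallest p per direction and test were named. Poisson intervals cover counting error only. Alternatives changed scaling, filter, block, covariates, clones, windows and the measure that divided the clones.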

Additional observations from a re-analysis of the deposited data

How the results depend on the processing

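The count of loci whose change differed between the groups stayed at 0 under every alternative run but the division by control total (2), and that of peaks and of the 24 motifs stayed at 0 under all run. The numbers called within each group moved more. In upper Sox4 clones 273 loci were called, and 164 with DESeq2, 108 with no replicate block, 126 in clones 1 to 18 alone, 0 in clones 23 to 29 alone, 75, 126 and 595 with the clones divided by KO line Sox4, by the 1 kb window and by control total, 66 with the upper 8 against the lower 8, and 137 with totals matched. In lower Sox4 clones the 41 became 3 with DESeq2, 17 with upper-quartile scaling, 23 with no filter, 17 with no replicate block, 6 with promoter share as a covariate, 2 and 0 in the 2 sets of clones, 12 without clones 5, 13 and 16, 231, 190 and 3 under those 3 divisions, 16 with 8 against 8, and 18 with loci of 1 kb. The 50 peaks of upper clones became 1 with no replicate block, 29 with promoter share as a covariate, 26 and 0 in the 2 sets of clones, 1, 13 and 145 under the 3 divisions, and 10 with 8 against 8. The 2 peaks of lower clones became 0 with DESeq2, with no replicate block, with promoter share, in both sets of clones, without low depth clones, by control total and with 8 against 8, 1 without clones 5, 13 and 16, 55 and 9 by KO line and 1 kb Sox4, and 8 by the mean of both lines. The causes were not tested. Clones 5, 13 and 16 were left out for their share of counts on chromosome 1. That share ran from 5.96 to 7.33% in lower and from 5.87 to 6.99% in upper control lines. Its part in the calls was not tested. All peaks without a count filter were not run.

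Leaving out 1 clone gave 148 to 432 loci in upper and 1 to 88 in lower clones, a score difference of -0.0148 (without clone 2, permutation p = 0.048) to -0.00857, a promoter share difference of -0.974 to 1.09 points and a KO line Sox4 difference of 19.0 to 25.5 CPM (largest permutation p = 0.054). The score difference passed at -0.0156 by KO line Sox4, -0.0151 by the 1 kb window, -0.0201 with 8 against 8 and -0.0198 over all loci with a peak, and was 0.00993 by control total. The promoter share difference, 0.120 points, turned to -2.79 in clones 23 to 29, -0.102 without clones 5, 13 and 16, -0.437 without low depth clones, -2.90 by the 1 kb window and -2.36 with 8 against 8. The KO line Sox4 difference no longer passed in clones 1 to 18 (21.7 CPM) or 23 to 29 (23.1), without low depth clones (18.1), by the 1 kb window (10.9) or with 8 against 8 (20.2), and was -6.76 by control total.

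Among single loci, the sign of a difference that had not passed turned under division by KO line Sox4 at Ankrd28 (0.01), Armc7 (0.11), Gata2 (0.08), Gm10392 (0.05), Meis1 (0.09), Mon1b (-0.0040), Rhoa (-0.04), Spc24 (-0.14) and Timp2 (-0.0042). It turned by the 1 kb window at F10 (0.20), Gata2 (0.03) and Mpo (0.11), by the mean of both lines at Mpo (0.04) and Timp2 (-0.07), and by control total at Mpo (0.01), Ranbp2 (0.01), Tet2 (0.08) and Timp2 (-0.18). With no replicate block it turned at F10 (0.01) and Meis1 (0.0011), in clones 23 to 29 at F10 (0.07), Kit (0.10), Meis1 (0.24), Mpo (0.61) and Tet2 (0.03), in clones 1 to 18 at Timp2 (-0.08), without low depth clones at F10 (0.04), and as a slope on Sox4 at Mpo (0.03). With loci of 50 kb it turned at Birc5 (-0.06), Runx3 (0.01) and Tet2 (0.09), and the changes of Akt1 in upper (0.01) and Spc24 in lower clones (0.01) turned as well. Leaving out 1 clone gave -0.14 to 0.01 at Gata2, -0.16 to 0.02 at Runx3, -0.30 to 0.01 at Tet2 and -0.02 to 0.17 at Timp2. Of values for called loci under alternatives other than leaving out a clone, 503 stayed called in direction and 246 no longer passed. Division by TMM scaled Sox4 or by Sox4 peaks within 50 kb left all 24 clones in their group. Both therefore repeat the main fit, here and in the counts above, and could not change a value.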
